A study of Homo sapiens with 12 samples.

Results

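A set of 10 genes tied to neuroblastoma was followed in SH-SY5Y cells: the MYC family oncogenes MYCN and MYC, their partner MAX, the MAX-binding repressor MXD4, the MYC target ODC1, the receptor ALK, the LIM-only genes LMO1 and LMO3, the RNA-binding gene LIN28B and the telomerase gene TERT. They were taken by name from the 55765 gene symbols of the count files, and all 10 members were found there and passed the filter on low counts in every comparison. SH-SY5Y is a subline of SK-N-SH, a human neuroblastoma line grown from a bone marrow metastasis, and all 12 libraries came from this line. Every culture received all-trans retinoic acid (ATRA) for 7 days, which turns the neuroblasts into neuron-like cells, so that all values below are from ATRA-treated cells and none is from undifferentiated cells. In the co-treatment experiment, 3 cultures had H2O2 together with ATRA for the 7 days and 3 control cultures had ATRA alone. In the pre-treatment experiment, 3 cultures met H2O2 72 h before ATRA was begun and 3 control cultures had no H2O2. The methods give 10 μM for ATRA and for H2O2, whereas the text of the series gives 10 mM for H2O2. The sources do not say that replicates were grown on separate days, so the tests measure the spread between these 12 libraries, which are of 1 cell line.

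MYC family proteins bind DNA as pairs with MAX and raise the transcription of genes for ribosome building, nucleotide synthesis and growth, while MXD proteins, MXI1 and MNT take the same partner and the same site and act against them. In neuroblastoma, amplified MYCN, activated ALK and rearranged TERT mark aggressive tumours, common variants near LMO1 and LIN28B are linked to risk, and retinoic acid is used as a differentiating drug. SH-SY5Y has no amplified MYCN and carries an activated ALK.

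The site that MYC-MAX and MXD-MAX pairs share, the E-box CACGTG, is shown in 4 members' promoters because it is the DNA sequence that the network proteins among the 10 genes bind. RefSeq promoter windows (250 bases before to 50 after a start, on GRCh38.p14, a newer build than the hg19 of the counts) were matched for 9 of the 10 members, and CACGTG, which reads the same on both strands, lay in at least 1 window of 5 of them (55.6%), ALK, LIN28B, ODC1, MXD4 and TERT. Of all 27305 genes with a window, 8.77% held it. A list of 60 MYC-activated genes, described below, held it in 28 of 52 matched genes (53.8%). The looser CANNTG was found in 7 of 9 members (77.8%) and in 73.1% of all genes. In ALK the window belonged to an alternative start, and whether the LIN28B start is the main one was not checked. Each run below is 60 bases upstream of a start, printed 5′ to 3′ on the gene's strand, with the E-box in capitals.
ODC1 (chr2:10448013-10448072, minus strand): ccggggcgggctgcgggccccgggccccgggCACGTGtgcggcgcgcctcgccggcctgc
MXD4 (chr4:2262300-2262359, minus strand): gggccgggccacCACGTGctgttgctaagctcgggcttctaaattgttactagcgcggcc
LIN28B (chr6:104957033-104957092, plus strand): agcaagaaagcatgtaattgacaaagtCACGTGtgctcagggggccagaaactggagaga
ALK (chr2:29223908-29223967, minus strand): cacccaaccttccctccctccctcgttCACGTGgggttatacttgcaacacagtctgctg
These matches are letters in a window and do not show binding in these cells.

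The libraries held 27576276 to 98287391 reads on genes. Neuroblast markers were present throughout, with 13 of 14 above 1 CPM in every library and a summed level of 4175 to 6096 CPM. Blood markers summed to at most 1.31 CPM. For these marker counts and sums, CPM is scaled to library size alone. The CPM levels of genes given further below are also scaled with TMM factors over the 12 libraries. Markers of substrate-adherent mesenchymal cells, a second state of this line, summed to 93.8 to 232 CPM in co-treatment controls and 202 to 224 CPM in co-treated libraries, and to 112 to 310.2 CPM in pre-treatment controls and 216 to 280.2 CPM in pre-treated libraries, with overlap in both experiments. Of 9 such markers tested, VIM was called higher in co-treatment, beside 0.335% of all genes. VIM and COL3A1 were called higher with all 6 pre-treatment libraries, beside 0.0242% of all genes. The log2FC was positive for 7 and negative for 2 (TNC and COL1A1) in co-treatment. It was positive for 6 and negative for 3 (TNC, COL1A1 and FN1) with all 6 pre-treatment libraries. Schwann and melanocyte markers summed to 27.9 to 31.5 CPM in co-treatment controls and 37.2 to 45.0 CPM in co-treated libraries, with PMP22 called higher, and to 21.2 to 29.9 CPM in pre-treatment controls and 35.7 to 41.6 CPM in pre-treated libraries. Of 13 neuroblast markers tested, 0 were called in either experiment with all libraries. Without pre-treatment control replicate 3, the library described next, 4 neuroblast markers were called higher and 4 lower of 13, 4 mesenchymal markers higher and 1 lower of 10, and 1 Schwann or melanocyte marker higher of 7, beside 13.2% of all genes higher and 12.8% lower. The part of these other cell states in the results of the 10 genes was not tested. The library labelled pre-treatment control replicate 3 stood apart from its group. Reads outside annotated genes came to 0.200 per read on a gene there, against 0.800 and 0.830 in controls 1 and 2 and 0.343 to 0.462 in the 3 pre-treated libraries, and small structured RNAs took 17.6% of its gene counts against 1.59% and 2.88%. The pre-treatment results of the 10 genes are therefore given with all 6 libraries and again without this control. The part of reads outside genes in the pre-treatment results was not tested.

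Per kilobase of exon, ODC1 and ALK were the most abundant of the 10 RNAs, with medians over the 12 libraries of 39.7 and 39.5 CPM per kb, and their order cannot be told apart. MXD4 followed at 19.7, LMO1 at 13.5, MAX at 8.86, LMO3 at 6.22 and LIN28B at 3.50 CPM per kb. MYCN (1.34), MYC (0.710) and TERT (0.639 CPM per kb) were the least abundant, and the ranges of MYCN, MYC and TERT overlapped from each to the next, as did those of MAX and LMO3 and of LMO3 and LIN28B. Those of MXD4, LMO1 and MAX did not. With the length of the canonical transcript in place of all exons, MAX moved above LMO1 to 27.6 CPM per kb, and LMO3 (18.3) moved above LMO1 (17.8). A library held 79 to 304 reads of MYCN and 106 to 569 of TERT. The plot of CPM by library shows all 10 genes.

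**Figure D1:**
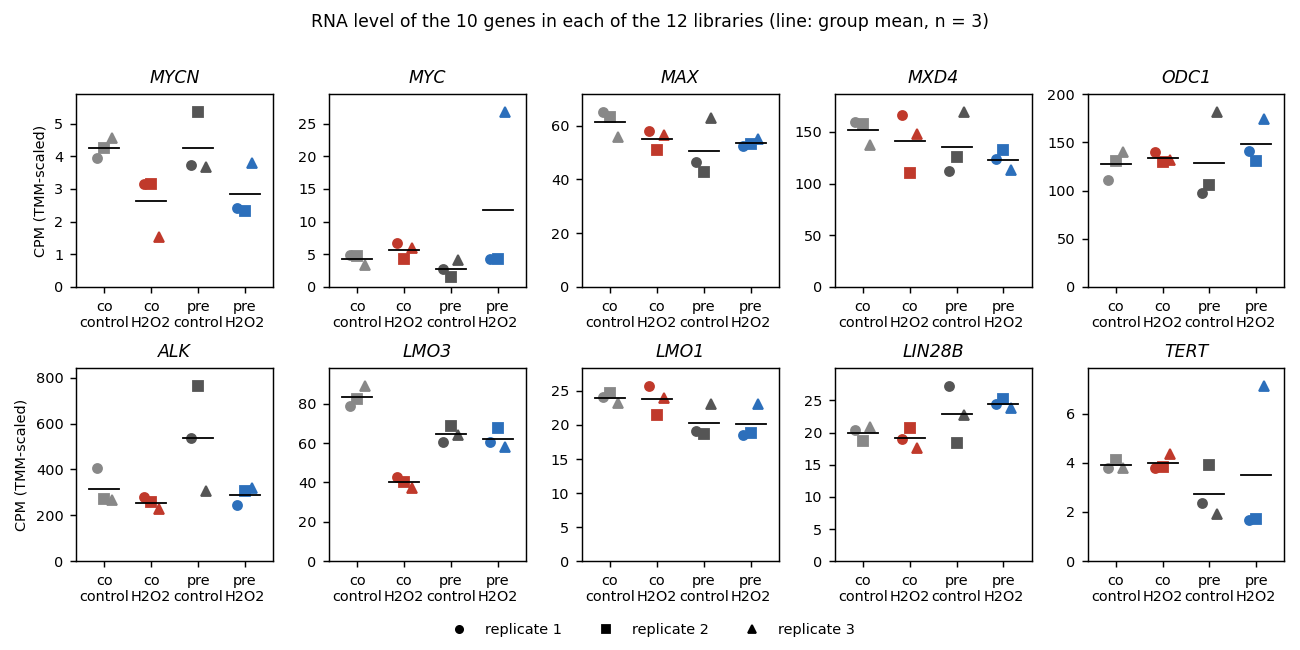
TMM-scaled CPM of each of the 10 genes (y axis, from 0, own scale per panel) in the 4 groups (x axis), 1 symbol per library and a line at the group mean (n = 3). The 3 co-treated libraries lie apart from their controls for LMO3, and pre-treated replicate 3 lies far above all other libraries for MYC (26.8 CPM) and TERT (7.13 CPM).

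Members were called at an FDR under 0.05 in edgeR's quasi-likelihood test over all genes, and log2 fold changes (log2FC) are H2O2-treated over control. In co-treatment, 1 of the 10 members was called, LMO3, beside 0.598% of the 22089 genes tested. It was called lower, as were 0.263% of these genes, and 0 members were called higher, as were 0.335%. In pre-treatment with all 6 libraries, 0 of 10 were called beside 0.0242% of 24743 genes, and an unadjusted p below 0.05 was reached by 2 members, MYC and ALK. DESeq2 likewise called 0 members there. When control replicate 3 was left out, ALK and ODC1 were called, 2 of 10 beside 26.1% of 26350 genes, a share near that of all genes. Groups that did not overlap were counted over the 24407 genes of the 12-library fit. In co-treatment MYCN and LMO3 were wholly lower in treated cells, beside 6.99% of genes, and 0 members were wholly higher, beside 6.47%. In pre-treatment with all 6 libraries MYC was wholly higher, beside 8.03%, and 0 members wholly lower, beside 8.65%. Leaving out control replicate 3, MYC, MAX and ODC1 were wholly higher, beside 27.3%, and ALK wholly lower, beside 30.6%.

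**Figure D2:**
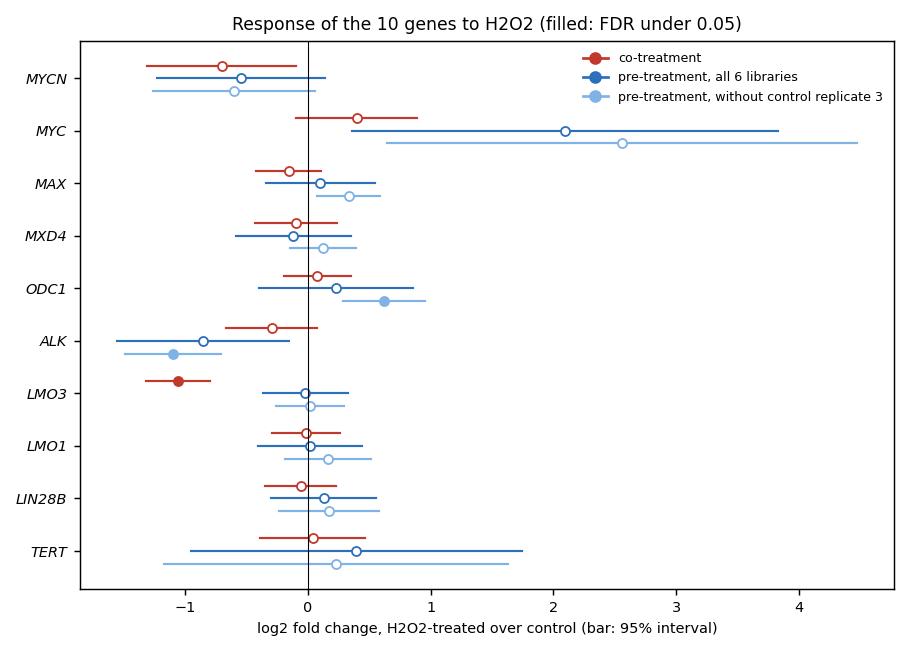
log2 fold change of each gene, treated over control (x axis), with its 95% interval (bar), for co-treatment, for pre-treatment with all 6 libraries and for pre-treatment without control replicate 3. Filled points passed an FDR of 0.05, which holds for LMO3 in co-treatment and for ALK and ODC1 in pre-treatment without control replicate 3.

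LMO3 encodes a LIM-only protein, which binds no DNA itself and links basic helix-loop-helix and GATA factors through LDB1. The gene lies at chr12:16701306-16763528 on the minus strand of hg19. Its RNA stood at 79.0, 82.6 and 89.1 CPM in co-treatment controls 1 to 3 and at 42.7, 40.1 and 37.2 CPM in the co-treated libraries. The groups did not overlap, and every co-treated library was near the level of the others. LMO3 fell by 1.06 on the log2 scale (SE 0.12, 95% interval -1.32 to -0.80, FDR 0.00166), a fold of 0.479. A smaller share of cells with LMO3 and less LMO3 RNA per cell cannot be told apart in bulk RNA. In the pre-treatment experiment LMO3 stood at 60.3, 68.8 and 64.0 CPM in controls and 60.5, 67.9 and 58.2 CPM in treated libraries. Here the 2 groups overlapped, with a log2FC of -0.02 over all 6 libraries (95% interval -0.37 to 0.32) and 0.02 without control replicate 3 (-0.26 to 0.29). The difference between the 2 responses was 1.01 on the log2 scale over all 12 libraries (SE 0.17, FDR 0.0934), not called beside 0.0287% of 24407 genes that were, and 1.02 without pre-treatment control replicate 3 (SE 0.17, FDR 0.00775), called beside 8.02% of 25668 genes. The pre-treatment controls were themselves below the co-treatment controls for LMO3, and each experiment had controls of its own.

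LMO1, the neuroblastoma risk gene of the same family (chr11:8245856-8290263, minus strand), stayed between 18.6 and 25.7 CPM in all 12 libraries. Its log2FC was -0.02 in co-treatment (95% interval -0.29 to 0.26) and 0.02 in pre-treatment with all 6 libraries (-0.41 to 0.44), and 0.16 without control replicate 3 (-0.19 to 0.52). The counts of LMO3 per count of LMO1 were 3.27 to 3.84 in co-treatment controls, 1.55 to 1.86 in co-treated libraries and 2.51 to 3.67 in the pre-treatment experiment, so the 2 paralogs changed unequally in co-treatment. Their coding sequences (468 and 435 bases in the GENCODE transcripts) were 79.8% identical over 435 aligned bases, with no identical run longer than 20 bases. Of 18 genes of the LMO transcription complex, 15 were tested in co-treatment and LMO3 was the 1 called, with a median log2FC of -0.25 beside 0.00 for all genes. TCF4, an E-protein partner, stood at 1158 to 1273 CPM in co-treatment controls and 855 to 940.2 CPM in co-treated libraries without passing the test (log2FC -0.42, FDR 0.268). NHLH2, the helix-loop-helix gene known to pair with LMO3 in neuroblastoma, was near the limit of detection at 0.256 to 1.12 CPM. In pre-treatment without control replicate 3, LMO4 was called higher (log2FC 1.87, FDR 0.0361) and SSBP3 (-1.06), GATA2 (-0.92) and GATA3 (-1.44) lower, 4 of 17 tested beside 26.1% of all genes, and 0 of 17 were called with all 6 libraries. LMO4 was at 6.55 CPM in pre-treated replicate 3 and at 2.33 and 2.00 CPM in the other 2.

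MYCN, at chr2:16080672-16087129 on the plus strand, was lower in each H2O2 group on average but was not called in either experiment. It stood at 3.96, 4.25 and 4.56 CPM in co-treatment controls and at 3.16, 3.15 and 1.54 CPM in co-treated libraries, which did not overlap. The log2FC was -0.70 (SE 0.28, 95% interval -1.31 to -0.10, FDR 0.499). In pre-treatment MYCN stood at 3.74, 5.37 and 3.66 CPM in controls and 2.42, 2.34 and 3.81 CPM in treated libraries, where replicate 3 lay inside the control range. The log2FC was -0.54 with all 6 libraries (FDR 0.533) and -0.60 without control replicate 3 (FDR 0.156). Without pre-treated replicate 3 as well, an alternative added after the data were seen, MYCN was called at -0.89 (FDR 0.0272). In all, 8577 genes were called there, more than the 6871 of 26350 (26.1%) called without control replicate 3 alone. The responses of MYCN in the 2 experiments differed by 0.13 (95% interval -0.78 to 1.05). Of the neighbours of the MYCN and MYC loci, 0 of 7 tested were called in co-treatment or in pre-treatment with all 6 libraries. DDX1, which is often amplified together with MYCN, held 138 to 201 CPM in the 12 libraries. It was called higher only without control replicate 3 (log2FC 0.43, FDR 0.0312), 1 of 7 neighbours beside 13.2% of all genes called higher. The antisense gene MYCNOS stood at 0.145 to 0.530 CPM.

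MYC (chr8:128747680-128755197, plus strand) showed the widest spread of the 10, with a standard deviation over the 12 libraries higher than that of 88.7% of 24407 genes. It stood at 4.83, 4.69 and 3.39 CPM in co-treatment controls and 6.79, 4.34 and 5.99 CPM in co-treated libraries, which overlapped (log2FC 0.40, FDR 0.739). In pre-treatment it stood at 2.67, 1.51 and 4.19 CPM in controls and 4.34, 4.26 and 26.8 CPM in treated libraries. Every treated value lay above every control value, but treated replicates 1 and 2 lay just above control replicate 3, while replicate 3 held 2143 reads against 419 and 290. The log2FC was 2.09 with all 6 libraries (SE 0.76, 95% interval 0.36 to 3.83, FDR 0.363) and 2.56 without control replicate 3 (SE 0.84, FDR 0.0538), neither of them called. With pre-treated replicate 3 left out too, MYC was called at a log2FC of 1.07 (FDR 0.0281). In all, 8577 genes were called there, more than the 6871 of 26350 (26.1%) called without control replicate 3 alone. With all controls and without pre-treated replicate 3 the log2FC of MYC was 0.64.

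Pre-treated replicate 3 differed from its 2 replicates most for MYC and TERT among the 10 genes. MYC was 6.24 times the mean of replicates 1 and 2, a ratio passed by 2 of the 15083 genes at 1 CPM or more, and TERT was 4.20 times that mean, passed by 7. MYCN was 1.60 times and ODC1 1.29 times the mean of the others, and MXD4 0.878 times. Of 57 MYC-activated genes that are not members (ribosome biogenesis, nucleotide synthesis and cell growth genes), 55 were highest in replicate 3 among the 3 pre-treated libraries (96.5%), beside 39.7% of all 24407 genes. The median ratio over the 59 genes of the list with members was 1.33, beside 1.00 for all genes. Genes of the ALK and ERK list were highest there in 6 of 26 cases (23.1%), with a median ratio of 0.807, and those of the polyamine list in 6 of 17 (35.3%). Telomerase and telomere genes were highest there in 12 of 17 (70.6%, median ratio 1.16) and MYC turnover genes in 7 of 11 (63.6%, median ratio 1.07). The count was 7 of 12 (58.3%) for the MAX network, 9 of 19 (47.4%) for the LIN28 and let-7 list and 7 of 16 (43.8%) for the LMO complex. MYC alone made 62.0% of the summed per-kilobase level of MYCN, MYC and MYCL in that library and 6.17% to 28.7% in the other 11. These are values of 1 library, with no replicate behind them. This library also held 0.462 reads outside genes per read on a gene, the highest of the pre-treated group, whose part in the ratios was not tested.

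**Figure D3:**
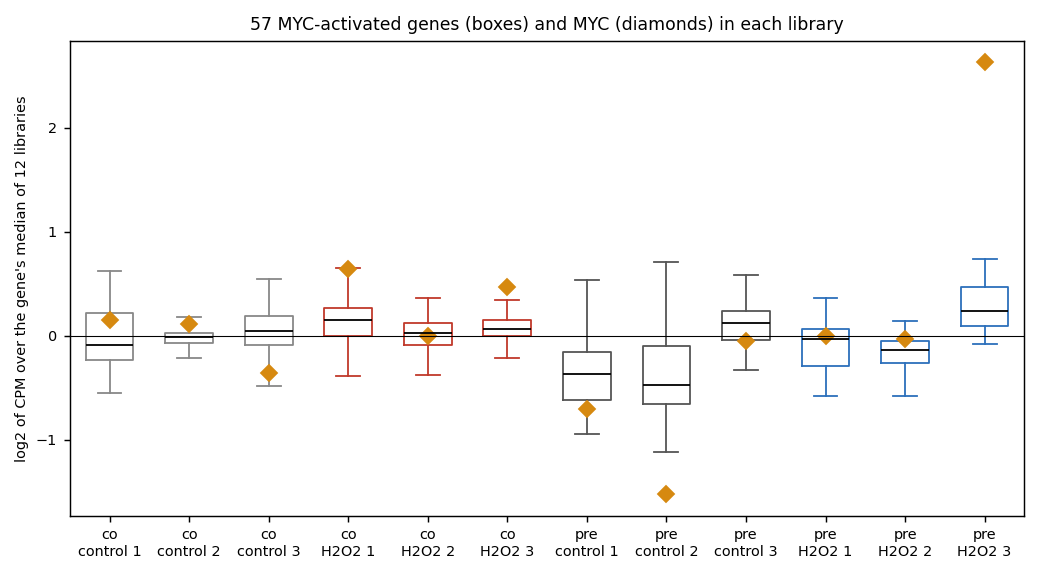
log2 of CPM over the same gene's median of the 12 libraries (y axis) in each library (x axis), as boxes for 57 MYC-activated genes (median, quartiles, whiskers to 1.5 times the quartile range) and diamonds for MYC. The boxes are lowest in pre-treatment controls 1 and 2, with medians of -0.36 and -0.47, and highest in pre-treated replicate 3, with a median of 0.24, where MYC is at 2.63.

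Of the MYC-activated genes, 59 were tested. In co-treatment 0 were called, 10 had an unadjusted p under 0.05, and the median log2FC was 0.13 beside 0.00 for all genes. HK2, a glycolytic enzyme (log2FC -0.77, FDR 0.0693), NCL, a nucleolar protein (-0.68, FDR 0.197), and APEX1, a DNA repair enzyme (-0.48, FDR 0.242), had the smallest p-values and all were lower in the treated group. Most of the list went the other way, with 43 positive and 16 negative log2FC. In pre-treatment with all 6 libraries, 0 of 59 were called, 4 had an unadjusted p under 0.05 and the median was 0.26. With control 3 left out, 30 were called higher and 1 lower, with a median of 0.53, beside 13.2% and 12.8% of all genes. NME1, a nucleoside diphosphate kinase, stood at 23.7 and 25.7 CPM in controls 1 and 2, at 68.6 CPM in control 3 and at 57.7, 45.2 and 74.5 CPM in treated libraries. PHB, a mitochondrial scaffold protein, stood at 60.5 and 55.1 CPM in controls 1 and 2, at 122.4 CPM in control 3 and at 102.3, 94.2 and 104.4 CPM in treated libraries. For both genes control 3 was on the treated side. CAD, the enzyme that opens pyrimidine synthesis, was the 1 called lower (log2FC -0.66, FDR 0.00900). Leaving out control replicate 1 or 2 as well left a single control library, with the spread taken from the treated group, so calls of this list there are not given.

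MAX (chr14:65472892-65569413, minus strand) had the second smallest spread of the 10 RNAs after LMO1 and ranged from 42.8 to 65.2 CPM over the 12 libraries. Its log2FC was -0.16 in co-treatment (95% interval -0.42 to 0.11) and 0.10 in pre-treatment with all 6 libraries (-0.34 to 0.54). Without control replicate 3 the treated libraries, at 52.5, 53.0 and 55.0 CPM, lay above controls 1 and 2 at 46.4 and 42.8 CPM (log2FC 0.33, FDR 0.0590), whereas control 3 was at 62.8 CPM. MXD4 (chr4:2249159-2263836, minus strand) stood at 159, 158 and 138 CPM in co-treatment controls and 166, 110.2 and 148 CPM in co-treated libraries. It stood at 112, 126 and 169.6 CPM in pre-treatment controls and 124, 133 and 113 CPM in treated libraries. Both pairs of groups overlapped, with log2FC of -0.10 (95% interval -0.43 to 0.23) and -0.12 (-0.59 to 0.35). MXD4 turned to 0.12 without pre-treatment control replicate 3 (-0.15 to 0.39).

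The other genes of the MAX network followed no single direction. In co-treatment 0 of 12 tested were called, and 3 (MXD3, MXI1 and MYCN) had an unadjusted p under 0.05, all lower in treated cells. MXI1, a repressor partner of MAX, stood at 99.9, 115 and 128 CPM in controls and 92.6, 88.6 and 92.6 CPM in co-treated libraries (log2FC -0.32, FDR 0.486). MXD3, a MAX partner of proliferating cells, stood at 24.8, 29.0 and 25.1 CPM against 22.3, 20.3 and 18.3 CPM (log2FC -0.37, FDR 0.427). In pre-treatment with all 6 libraries 0 of 13 were called. In the comparison without control 3, MLX (log2FC 0.64, FDR 0.0112) and MXI1 (0.34, FDR 0.0434) were called higher and MLXIP (-1.61, FDR 0.00118) and MNT (-1.23, FDR 0.00311) lower, 4 of 13 beside 26.1% of all genes. MNT, a repressor that shares MAX with MYC, stood at 28.2 and 39.2 CPM in controls 1 and 2, at 11.7 CPM in control 3 and at 13.0, 15.3 and 12.6 CPM in treated libraries. MLXIP, a glucose sensor that pairs with MLX, stood at 67.0 and 75.2 CPM in controls 1 and 2, at 19.6 CPM in control 3 and at 17.6, 22.5 and 26.6 CPM in treated libraries. For both genes control 3 again lay with the treated libraries. MGA, another protein that pairs with MAX, was not called in any of the 3 comparisons (log2FC 0.15, -0.07 and -0.15), nor were MYCL (0.12, -0.46 and -0.24), MXD1 (0.08, -0.11 and -0.22) and MXD3. MLXIPL was tested in pre-treatment alone and was not called (log2FC 1.16 with all 6 libraries, FDR 0.518). The summed per-kilobase level of the MXD genes, MXI1 and MNT was 10.6 to 14.1 times that of the MYC family in 11 libraries and 5.91 times in pre-treated replicate 3. Genes that act on the MYC proteins' stability gave 0 calls of 11 in co-treatment and with all 6 pre-treatment libraries. Over the 5 libraries without control 3, 4 of them were called lower, GSK3B (-1.08), HUWE1 (-1.40), PLK1 (-1.07) and TRIM32 (-0.47), beside 12.8% of all genes.

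**Figure D4:**
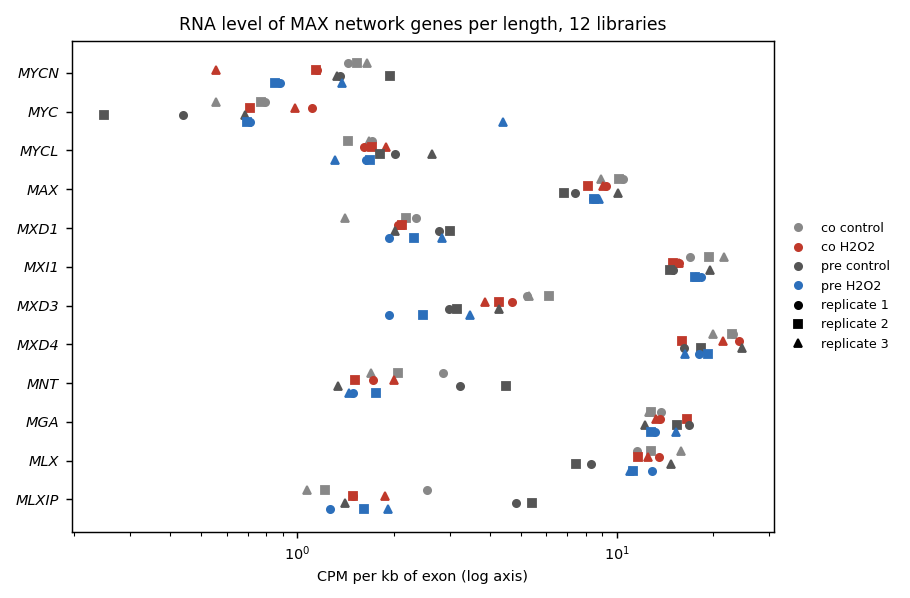
CPM per kb of exon (x axis, log scale) of 12 MAX network genes in each of the 12 libraries, coloured by group with a shape per replicate. MYCN, MYC and MYCL lie below MXI1 and MXD4 in every library, and MYC in pre-treated replicate 3 lies to the right of its other values.

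ALK (chr2:29415640-30144452, minus strand) encodes a receptor tyrosine kinase of the early sympathetic nervous system that signals through ERK. It stood at 404, 269.7 and 267 CPM in co-treatment controls and 278, 259 and 228 CPM in co-treated libraries, which overlapped (log2FC -0.30, 95% interval -0.67 to 0.07, FDR 0.740). In pre-treatment it stood at 539, 765 and 307 CPM in controls and 247, 305 and 317 CPM in treated libraries. Controls 1 and 2 were far above every other library, and control 3 lay inside the treated range. The log2FC was -0.85 with all 6 libraries (SE 0.31, FDR 0.360), not called. Without control replicate 3 ALK fell by 1.10 on the log2 scale (SE 0.17, FDR 0.00427), lower in 3 of 3 treated libraries. With each further library left out the log2FC was -1.31 to -0.82 and was called. Where control 1 or 2 was the one left out, the control arm was a single library, assumed to vary as the treated libraries do. The 2 libraries with the most ALK RNA were also the 2 with the most reads outside genes, 0.800 and 0.830 per read on a gene, and the third highest ALK level, in co-treatment control 1, went with 0.370, below pre-treated replicates 2 and 3. The difference between the 2 responses was -0.59 over all 12 libraries (FDR 0.636) and -0.86 without pre-treatment control replicate 3 (FDR 0.0599), not called.

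**Figure D5:**
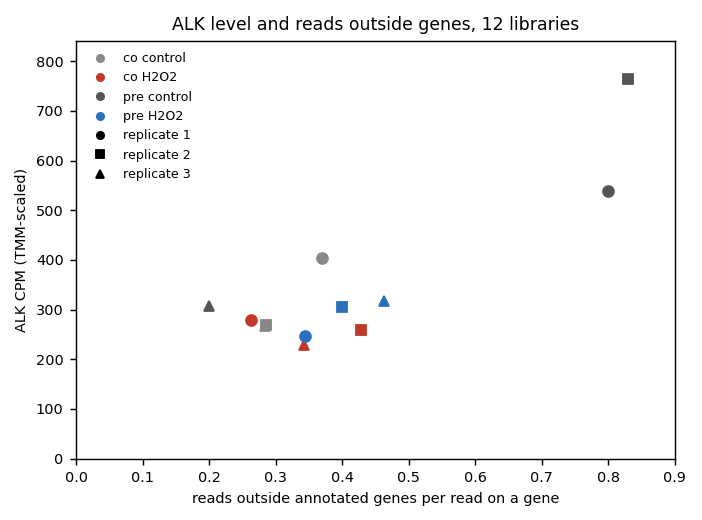
ALK CPM (y axis) against reads outside annotated genes per read on a gene (x axis) in the 12 libraries, coloured by group with a shape per replicate. Pre-treatment controls 1 and 2 lie at the upper right (539 and 765 CPM), and the other 10 libraries lie between 228 and 404 CPM.

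Of 28 genes of the ALK receptor, its ligands and the ERK output, 26 were tested. In co-treatment SPRY1 and SPRY2, feedback inhibitors that ERK signalling induces, were called lower, 2 of 26 beside 0.263% of all genes called lower. SPRY1 stood at 76.4, 72.3 and 63.8 CPM in controls and 39.7, 29.0 and 29.8 CPM in co-treated libraries (log2FC -1.11, SE 0.15, FDR 0.00505). SPRY2 stood at 20.4, 18.2 and 18.4 CPM against 11.4, 10.6 and 11.8 CPM (log2FC -0.75, SE 0.14, FDR 0.0322). Treated and control libraries did not overlap for either gene. Without co-treated replicate 3, 0 of the 26 were called, and without co-treated replicate 1 or 2 or control 2 or 3, 1 was. SPRY4 stood at 35.8 to 70.5 CPM in controls and 49.2 to 55.0 CPM in co-treated libraries. PHLDA1 (log2FC 0.93, FDR 0.251) and DUSP4 (0.46, FDR 0.337) had positive values and did not pass, and 18 of the 26 log2FC were negative. In pre-treatment 0 of 26 were called with all 6 libraries, although 10 had an unadjusted p under 0.05. With control 3 left out, PHLDA1 was called higher (1.22) and 9 lower, among them SPRED2 (-1.69), SPRY4 (-1.51), VGF (-2.46) and RET (-1.17), beside 13.2% of all genes called higher and 12.8% lower. SPRY4 then stood at 122.5 and 127 CPM in controls 1 and 2 and 41.7, 51.4 and 32.6 CPM in treated libraries, with control 3 at 57.9 CPM. SPRY1 was among the 9 (log2FC -0.72, FDR 0.0190) and SPRY2 was not (-0.50, FDR 0.326).

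ODC1 (chr2:10580094-10588453, minus strand), the rate-limiting enzyme of polyamine synthesis, carries the E-box shown above just upstream of its start. It stood at 110.6, 131 and 140.1 CPM in co-treatment controls and 140.4, 129.6 and 131 CPM in co-treated libraries (log2FC 0.07, 95% interval -0.20 to 0.35). In pre-treatment it stood at 97.8, 106 and 182 CPM in controls and 141, 130.3 and 175 CPM in treated libraries. With all 6 libraries the groups overlapped (log2FC 0.23, FDR 0.768), and without control replicate 3 ODC1 rose by 0.62 (SE 0.15, FDR 0.0174), higher in 3 of 3 treated libraries. That call was lost when control 1 (FDR 0.0833) or control 2 (FDR 0.0812) was left out as well, which leaves a single control library and takes the spread from the treated group. Of 17 polyamine genes, 0 were called in co-treatment and 0 with all 6 pre-treatment libraries. In the comparison without control 3, 7 were called higher, among them ODC1, the aminopropyl donor enzyme AMD1 (log2FC 0.59), spermine synthase SMS (0.56), EIF5A, whose protein carries the polyamine-derived hypusine (0.69), and the ODC1 inhibitor OAZ1 (0.57). The transporter ATP13A2 was called lower (-0.43). Of all genes, 13.2% were called higher and 12.8% lower in that comparison.

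LIN28B (chr6:105384491-105531207, plus strand) encodes the protein that blocks the maturation of let-7 microRNAs. It ranged from 17.6 to 27.3 CPM, and all 3 pre-treated libraries (24.4, 25.2 and 23.8 CPM) lay inside the range of their controls (27.3, 18.4 and 22.8 CPM). Its log2FC was -0.06 in co-treatment (95% interval -0.35 to 0.23) and 0.13 in pre-treatment (-0.30 to 0.56), and 0.17 without control replicate 3 (-0.24 to 0.58). Its paralog LIN28A was at 0.178 to 0.789 CPM. Of the LIN28 and let-7 pathway 0 of 19 tested were called in co-treatment and 0 of 20 with all 6 pre-treatment libraries. Over the 5 libraries without control 3, 4 of 21 were called lower, the microRNA-processing nuclease DROSHA (-0.93), the let-7 targets ARID3A (-0.72) and ARID3B (-0.55), and TRIM71 (-1.30), beside 12.8% of all genes.

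TERT (chr5:1253262-1295183, minus strand), the catalytic subunit of telomerase, stood at 3.79, 4.12 and 3.77 CPM in co-treatment controls and 3.77, 3.84 and 4.36 CPM in co-treated libraries. These groups overlapped, with a log2FC of 0.04 (95% interval -0.39 to 0.47). In pre-treatment it stood at 2.38, 3.92 and 1.92 CPM in controls and 1.68, 1.72 and 7.13 CPM in treated libraries. Replicates 1 and 2 were the lowest of all 12 libraries and replicate 3 the highest. The log2FC of 0.39 (95% interval -0.95 to 1.74) turned to -0.66 without pre-treated replicate 3, so that 1 library set its direction. It was 0.23 without control replicate 3 (-1.18 to 1.63). TERC, the RNA template, stood at 14.2, 53.0 and 133 CPM in pre-treatment controls and 64.0, 100.8 and 78.9 CPM in treated libraries (log2FC 0.29, FDR 0.878, and 1.34, FDR 0.0608, without control replicate 3). Of the 17 telomerase and telomere protection genes tested, 0 were called in co-treatment and 0 with all 6 pre-treatment libraries. With control 3 left out, 8 were called higher, led by the H/ACA proteins NOP10 (log2FC 0.65) and NHP2 (0.97), TERF2IP (0.58) and RUVBL1 (0.72), beside 13.2% of all genes.

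Of 24 other neuroblastoma risk and driver genes, 23 were tested in pre-treatment, and 0 were called with all 6 libraries. In the comparison without control 3, CDK4 and DUSP12 were called higher and SHANK2 (-1.91), NF1 (-1.12), ARID1A (-2.42), KIF1B (-0.90) and ARID1B lower, 7 of 23 beside 26.1% of all genes, a share near that of all genes. ARID1A stood at 278 and 370.0 CPM in controls 1 and 2 and at 48.5 CPM in control 3, with treated libraries at 38.7, 57.0 and 77.3 CPM.

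The genes most like each member over the 12 libraries, by Pearson correlation of log2 CPM, were named as a description, since the points share libraries, groups and depth. ALK was most like UNC5C (r = 0.98), AFF3 (0.98) and ADAMTS9 (0.97). LMO3 was most like RP11-137N23.1 (0.92), ARID3C (0.92) and NDRG1 (0.90). MYC was most like CHRM2 (0.92), ST6GALNAC2 (0.91) and QTRTD1 (0.91), and TERT like XRCC2 (0.94), a DNA repair gene. ODC1 was most like PCCB (0.97), MXD4 like PDZD4 (0.98), LMO1 like TFDP1 (0.96), MAX like CHTOP (0.94), LIN28B like SLC22A15 (0.94) and MYCN like RP11-6N17.2 (0.90), which is at 0.0194 to 0.307 CPM. None of the 3 genes most like MYC or MYCN was a member.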

How the data were processed

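Total RNA (ribosomal RNA depleted, TruSeq Stranded) of 12 SH-SY5Y libraries was sequenced. The authors trimmed reads with Cutadapt 2.10, mapped them to hg19 with HISAT2 2.1.0 and counted them per gene with htseq-count (HTSeq 0.7.2), and the deposited counts are raw. The strand setting and the annotation version are not given in the sources used here, so reads of overlapping or antisense genes cannot be told apart. The authors' 2 tables of fold changes and p-values were not used.

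Symbols were matched to GENCODE v44 lifted to GRCh37 (33177 of 55765, 59.5%) for positions and exon lengths, and coding sequences came from its transcripts. The 5 closing entries of each file (40.0% to 59.9% of its total) stayed out of library sizes. Counts were tested in R 4.3.3 with edgeR 4.0.16 (quasi-likelihood test, TMM factors, Benjamini-Hochberg FDR under 0.05) on genes with a CPM worth 5 reads or more of the shallowest library in at least the smaller group's number of libraries. The methods' rule has no fold minimum, and none was used in the main tests. A figure caption of the authors adds an absolute log2FC over 0.6 in co-treatment and over 1 in pre-treatment. These values are the fold threshold among the alternatives. The SE is the log2FC over the square root of F. Alternatives included DESeq2 1.42.0 and limma 3.58.1. The code was tested on simulated data. The members, gene lists and tests were chosen with earlier results of these data known. Named genes were all members, the MAX network, the 3 of each other list with the smallest p per comparison, the genes a list's count needs, and the 3 genes most like each member. NHLH2, LIN28A, MYCNOS and DUSP4 were named after their values were seen.

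Replicate pairs of a group differed by more than sampling noise (chi-square per degree of freedom 27.6 to 613). Library totals set the sampling noise alone, and counts cover reads without molecular identifiers. Some results of the list of other neuroblastoma genes are not reported here.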

Additional observations from a re-analysis of the deposited data

Results flagged for a closer look

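Without pre-treatment control replicate 3, the response of LMO3 was called different between the experiments in a test of the difference itself. The difference was 1.02 on the log2 scale (pre-treatment minus co-treatment, SE 0.17) at an FDR of 0.00775 in edgeR's quasi-likelihood test. This stood beside 8.02% of 25668 genes called. LMO3 was lower in 3 of 3 co-treated libraries, and its treated and control values overlapped in pre-treatment. With all 12 libraries the value was 1.01 at an FDR of 0.0934, which did not pass, beside 0.0287% of 24407 genes that did.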

How the results depend on the processing

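LMO3 was the 1 member called in co-treatment in all 18 alternatives (log2FC -1.11 to -1.01, FDR up to 0.0488, without co-treated replicate 3). In pre-treatment with all 6 libraries, leaving out 1 library each gave 0 to 2 members called, with 2 (ALK and ODC1) without control replicate 3, beside 6871 of all genes. A setting without control replicate 3 and treated replicate 3 together was added after the data were seen. It called 4 members (MYCN, MYC, ALK and ODC1), beside 8577 of all genes. That is more than the 6871 of 26350 genes (26.1%) called without control replicate 3 alone. In pre-treatment without control replicate 3, 2 members became 1 (ALK) with library size alone and with the fold threshold, 3 with no filter, the exact test and both experiments in 1 fit (MYC added), and 1 to 4 with each further library left out, where leaving out control 1 or 2 leaves a single control library, assumed to vary like the treated ones. For the difference between the experiments, 0 became 1 (LMO3) with DESeq2 and 0 to 1 with each library left out. Over all genes, the 132 calls in co-treatment became 3 (both experiments in 1 fit) to 535 (no filter), the 6 in pre-treatment became 0 to 8577, the 6871 without control replicate 3 became 1677 to 10754, and the 7 of the difference became 0 to 2058.

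Replicate numbers did not pair the samples (residual correlations of same-numbered libraries -0.279 to 0.0695), so no test was paired. With the replicate number as a block in pre-treatment without control replicate 3, 6 members were called (MYCN, MYC, MAX, ALK, ODC1 and TERT). This was beside 10754 called of the 26350 genes tested, and TERT turned sign there. The pre-treated replicate 3 has no partner there.

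Of 710 log2FC values under alternatives, 632 kept direction and side of the threshold and 56 turned sign. None of the 56 was called as reported, and 1 was called after turning (TERT with the replicate block, FDR 0.0258). The causes were not tested. In co-treatment, values were LMO1 0.0337 with library size alone, LMO1 0.00954 with upper-quartile factors. There, with each library left out in turn, the ranges were ODC1 -0.0160 to 0.147, LMO1 -0.0775 to 0.0484, MXD4 -0.233 to 0.0497, TERT -0.0304 to 0.0742. In pre-treatment with all 6 libraries, values were LMO1 -0.00886 with RLE factors, LMO1 -0.0276 with library size alone, LMO1 -0.00908 with DESeq2, LMO1 -0.00698 with both experiments in 1 fit, LMO3 0.0293 and MXD4 0.148 and TERT -0.848 without control replicate 3 and treated replicate 3 together. There, with each library left out in turn, the ranges were LMO1 -0.0970 to 0.164, MAX -0.0201 to 0.334, LIN28B -0.0193 to 0.261, LMO3 -0.0787 to 0.0200, MXD4 -0.251 to 0.122, TERT -0.659 to 0.742. In pre-treatment without control replicate 3, values were LMO3 -0.00200 with RLE factors, LIN28B -0.0532 and LMO1 -0.0529 and LMO3 -0.201 and MXD4 -0.0971 with library size alone, LMO3 -0.00558 scaled without small structured RNAs, LMO3 -0.00197 with DESeq2, TERT -0.773 with the replicate block, LMO3 -0.0978 with upper-quartile factors, LMO3 -0.0129 with no filter, TERT -0.0731 with limma-voom, LMO3 -0.0307 with both experiments in 1 fit. There, with each library left out in turn, the ranges were LMO3 -0.0563 to 0.118, TERT -0.848 to 0.634, LIN28B -0.0810 to 0.498. For the difference between the experiments over 12 libraries, values were LMO1 -0.0620 with library size alone. There, with each library left out in turn, the ranges were MXD4 -0.186 to 0.165, LMO1 -0.0948 to 0.124, MYCN -0.122 to 0.358, ODC1 -0.00613 to 0.489, TERT -0.711 to 0.702.

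MYCN and TERT rest on 79 to 569 reads a library. This and the spread between replicates limit the size of change that could be seen in them. The same limits hold for MYC, whose lowest level (1.51 CPM) was below those of MYCN (1.54 CPM) and TERT (1.68 CPM). That level was in pre-treatment control 2, with 0.282 reads of MYC per read of MYCN. The pre-treatment results rest on which control libraries are used, and each experiment has 3 libraries a group.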
